A study of Mus musculus with 12 samples.

Results

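Small leucine-rich proteoglycans are secreted matrix proteins with a curved core of leucine-rich repeats, and most of them sit on the surface of collagen fibrils in connective tissue. The genes described here are 9 of them, Dcn, Bgn, Aspn, Lum, Fmod, Prelp, Kera, Omd and Ogn, together with Mfap4, a microfibril-associated glycoprotein with a fibrinogen-related domain. They were chosen by symbol, with earlier results of these data known. All 10 were found once each among the 23235 gene rows of the deposited tables. Transcript levels were measured by poly-A RNA sequencing of tongue from C57BL/6 mice of 31 weeks of age, with 12 samples in 4 labelled groups of 3: 4-NQO/EtOH, 4-NQO/Untr., V.C./EtOH and V.C./Untr. 4-NQO is a chemical carcinogen used to raise oral tumours in mice, EtOH is ethanol, and V.C. is the carrier as the labels write it. The deposited tables carry 1 level per gene and group, as FPKM (fragments scaled by transcript length and by library size), for groups numbered 1 to 4. The sources used here do not link these numbers to the treatments, so the groups are called by their numbers, and no treatment is named for any of them. No values per sample are held in the tables, and the read depth is unknown.

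As background, the family is divided by sequence into classes. Decorin (Dcn), biglycan (Bgn) and asporin (Aspn) form class I. Decorin and biglycan carry chondroitin or dermatan sulfate chains and bind collagen and TGF-beta, whereas asporin has a run of aspartates and lacks such a chain. Lumican (Lum), fibromodulin (Fmod), PRELP (Prelp), keratocan (Kera) and osteomodulin (Omd) form class II, several of which carry keratan sulfate. Lumican and fibromodulin compete for a site on collagen type I, keratocan is best known from the corneal stroma, PRELP links basement membranes to the matrix below, and osteomodulin was first studied in bone. Osteoglycin (Ogn), also called mimecan, belongs to class III. Mfap4 binds elastin and fibrillin microfibrils as well as collagen.

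All 10 genes had a lower level in both of groups 3 and 4 than in both of groups 1 and 2, and this order alone was common, since 44.3% of 13337 genes showed it. In the contrast of groups 3 and 4 with groups 1 and 2, 8 of the 10 fell at an adjusted p under 0.05, while 8.66% of the 13072 genes tested were called lower and 6.47% higher, 15.1% in all. Kera fell the most, Fmod, Mfap4, Aspn and Ogn fell by between 3.20-fold and 4.80-fold, and Prelp, Lum and Bgn by between 1.97-fold and 2.53-fold. Dcn, the most abundant of the 10, and Omd, the least abundant in groups 1 and 2, did not pass. In neither of the other ways to set 2 groups against 2 did any of the 10 pass. With 4 groups that cross 2 treatments, these 3 contrasts hold both main effects and their interaction, whichever number stands for which treatment.

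**Figure D1:**
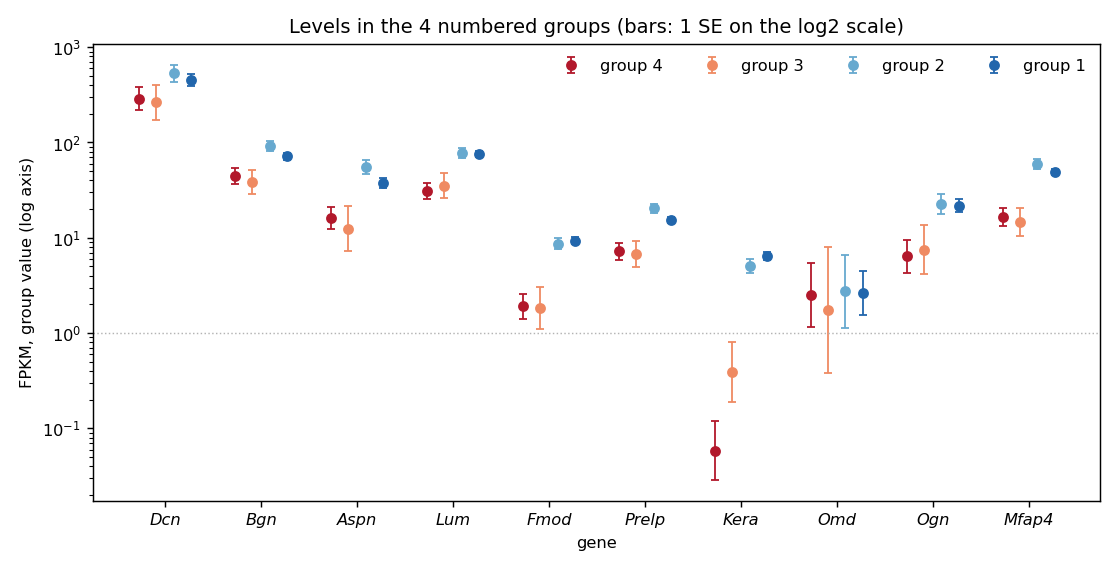
Deposited FPKM of each gene (log axis) in groups 4, 3, 2 and 1, with bars of 1 standard error on the log2 scale derived from the authors' test statistic; the dotted line marks 1 FPKM. Groups 4 and 3 lie below groups 2 and 1 in all 10 genes, with the widest gap in Kera and wide, overlapping bars in Omd.

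In class I, Dcn was at 288 FPKM in group 4 and 263 FPKM in group 3, against 532 FPKM in group 2 and 454 FPKM in group 1. The difference in mean log2(FPKM + 1), groups 3 and 4 minus groups 1 and 2, was -0.83 ± 0.40 (SE) and did not pass, with an adjusted p of 0.149 and an unadjusted p of 0.0369. Bgn was at 44.2 FPKM in group 4 and 38.8 FPKM in group 3, against 92.7 FPKM in group 2 and 72.0 FPKM in group 1. Its difference of -0.96 ± 0.26 was close in size to that of Dcn but passed, with an adjusted p of 0.00419. The standard error of the log2 level was larger for Dcn, at 0.40 in group 4 and 0.59 in group 3, than for Bgn, at 0.27 in group 4 and 0.41 in group 3. Aspn had 16.1 FPKM in group 4 and 12.4 FPKM in group 3, against 55.8 FPKM in group 2 and 37.9 FPKM in group 1. It fell by 1.63 ± 0.43 on the log2(FPKM + 1) scale (adjusted p 0.00299), or 3.25-fold as a ratio of FPKM.

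In class II, Kera was at 0.0585 FPKM in group 4 and 0.391 FPKM in group 3, against 5.10 FPKM in group 2 and 6.46 FPKM in group 1. Only in groups 1 and 2 did this corneal keratan sulfate proteoglycan reach 1 FPKM. On the log2(FPKM + 1) scale its difference was -2.48 ± 0.19 (adjusted p 6.10e-35). Near 0 FPKM the added 1 flattens both the change and its error. With no pseudocount, an alternative added after the data were seen, the log2 ratio was -5.25 ± 0.74 (adjusted p 2.85e-10), a 38.0-fold lower level with a range of 22.7-fold to 63.5-fold at 1 standard error.

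Fmod, which binds collagen type I, was at 1.92 FPKM in group 4 and 1.83 FPKM in group 3, against 8.64 FPKM in group 2 and 9.34 FPKM in group 1. Its fall of 1.80 ± 0.29 on the log2(FPKM + 1) scale (adjusted p 1.19e-07) was 4.80-fold as a ratio. Lum, which shares that binding site, was at 30.7 FPKM in group 4 and 35.2 FPKM in group 3, against 78.0 FPKM in group 2 and 75.5 FPKM in group 1. It fell by 1.20 ± 0.27 on the same scale (adjusted p 0.000370), or 2.33-fold. Prelp was at 7.22 FPKM in group 4 and 6.78 FPKM in group 3, against 20.4 FPKM in group 2 and 15.4 FPKM in group 1. Its fall was 1.23 ± 0.25 (adjusted p 6.19e-05), or 2.53-fold. Omd was at 2.51 FPKM in group 4 and 1.75 FPKM in group 3, against 2.75 FPKM in group 2 and 2.63 FPKM in group 1. Its difference of -0.25 had a standard error of 0.97 (adjusted p 0.926), so at this precision neither a large fall nor a large rise could have been told from none.

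Ogn, of class III, was at 6.39 FPKM in group 4 and 7.50 FPKM in group 3, against 22.6 FPKM in group 2 and 21.7 FPKM in group 1. It fell by 1.55 ± 0.49 on the log2(FPKM + 1) scale, with an adjusted p of 0.0157, or 3.20-fold. Mfap4, the microfibril-associated member outside the proteoglycan family, was at 16.6 FPKM in group 4 and 14.6 FPKM in group 3, against 59.5 FPKM in group 2 and 48.9 FPKM in group 1. Its fall of 1.73 ± 0.28 (adjusted p 1.16e-07) was 3.47-fold as a ratio.

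**Figure D2:**
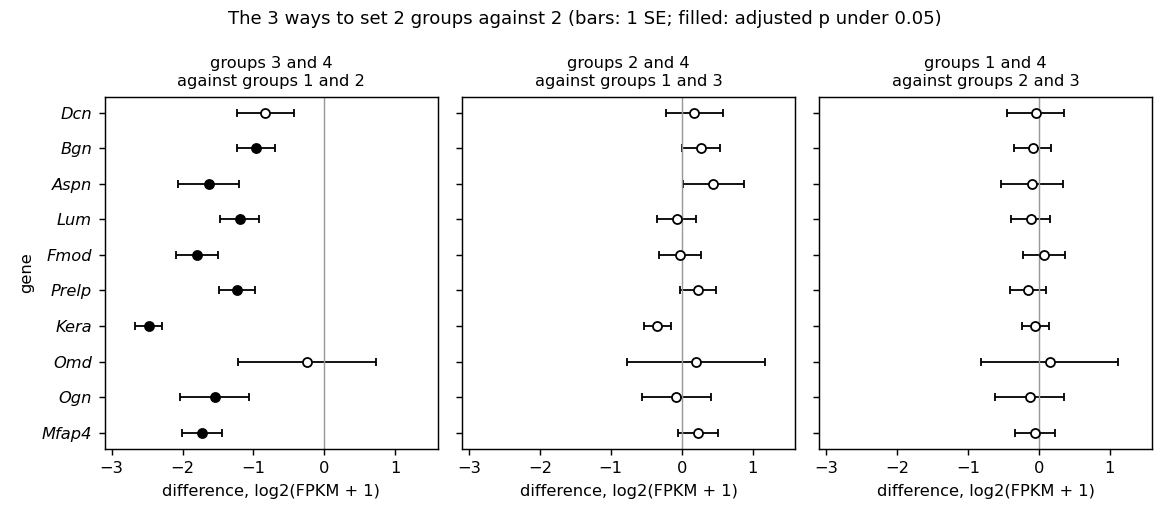
Difference in mean log2(FPKM + 1) of each gene for the 3 ways to set 2 groups against 2, with bars of 1 standard error and filled points for an adjusted p under 0.05. In the left panel 8 of 10 points are filled and lie below 0; in the middle and right panels all points are open and lie between -0.34 and 0.45.

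The median of the 10 differences was -1.39 in groups 3 and 4 against groups 1 and 2, beside -0.07 over all genes tested. In groups 2 and 4 against groups 1 and 3 the median of the 10 was 0.19, beside -0.01 over all genes. None of the 10 passed there, none had an unadjusted p under 0.05, and 0.145% of all genes passed, with 138 genes at an unadjusted p under 0.05. In groups 1 and 4 against groups 2 and 3 the median of the 10 was -0.07, beside -0.03 over all genes. Again none of the 10 passed or had an unadjusted p under 0.05, while 0.0994% of all genes passed and 85 had an unadjusted p under 0.05. With no change in any gene and errors of the right size, a share of 0.05 of the 13072 genes tested would have such a p. Both 138 and 85 are far below that share, so the test was strict in these contrasts. A gene that did not pass there is not shown to be unchanged. The differences of single genes in these 2 contrasts ran from -0.34 ± 0.19 for Kera to 0.45 ± 0.43 for Aspn, both in groups 2 and 4 against groups 1 and 3. With no pseudocount the Kera ratio in that contrast was -1.54 ± 0.74 on the log2 scale (adjusted p 1.00).

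The same picture was broken down into the 6 pairs of groups, which share groups and so are not independent of one another. In group 4 against group 1, 5 of the 10 genes were lower at a q under 0.05 in the authors' deposited table, where 3.91% of all genes tested were lower and 8.90% were called either way. They were Kera (q 2.22e-08), Fmod (6.83e-05), Mfap4 (0.000168), Lum (0.00167) and Prelp (0.0209). In group 4 against group 2, where 2.25% of all genes were lower and 5.55% were called, the authors' deposited table called 7 of the 10 lower. Beside Kera (q 2.92e-07), Mfap4 (1.76e-05), Fmod (0.000552), Prelp (0.000881) and Lum (0.00319) these were Aspn (0.00406) and Bgn (0.0364). Aspn and Ogn missed the threshold in group 4 against group 1, with q of 0.0755 and 0.0879 in the authors' deposited table.

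In group 3 against group 1, Kera (q 0.00736), Mfap4 (0.0187) and Fmod (0.0499) were lower in the authors' deposited table, with 0.282% of all genes lower and 2.80% called. In group 3 against group 2, Mfap4 (q 0.00460), Kera (0.0229) and Prelp (0.0351) were lower in the authors' deposited table, with 0.229% of all genes lower and 1.84% called. Only Kera and Mfap4 passed in each of these 4 pairs. Mfap4 differed by -1.50 ± 0.30 in group 4 against group 1, -1.78 ± 0.33 in group 4 against group 2, -1.68 ± 0.46 in group 3 against group 1 and -1.95 ± 0.48 in group 3 against group 2. As log2 ratios of FPKM, Kera differed by -6.79 ± 1.04, -6.45 ± 1.05, -4.05 ± 1.05 and -3.71 ± 1.07 in the same 4 pairs. All 10 genes had differences below 0 in each of the 4 pairs, with medians of -1.23, -1.53, -1.25 and -1.47 in the order just used. The errors of group 3 were wider: a typical standard error of a log2 level over all genes was 0.331 in group 4 and 0.492 in group 3, against 0.204 in group 2 and 0.138 in group 1.

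**Figure D3:**
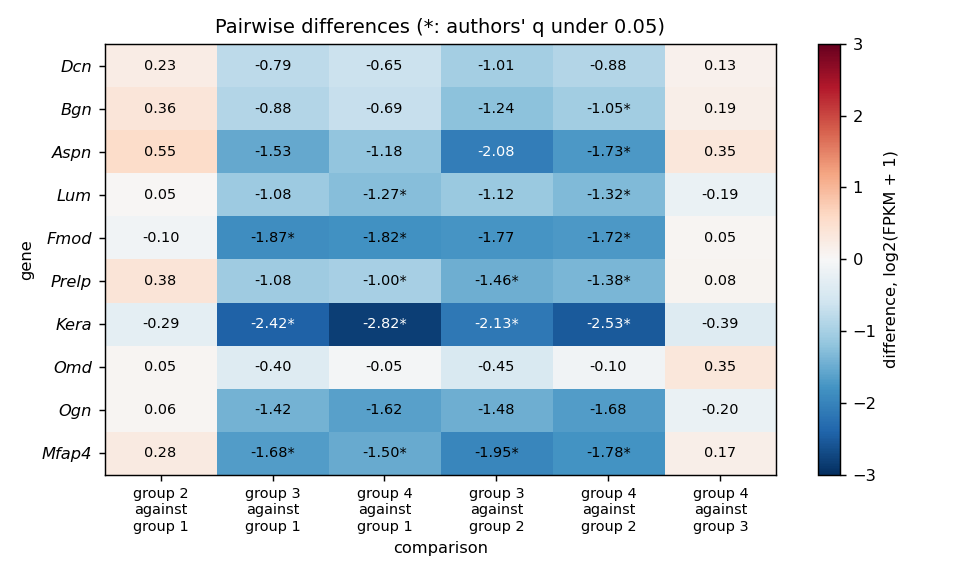
Difference in log2(FPKM + 1) of each gene (rows) in the 6 pairs of groups (columns), the first-named group minus the second; a star marks a q under 0.05 in the authors' deposited table. Stars stand in the 4 columns that set group 3 or 4 against group 1 or 2, and the outer columns have none.

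Between group 2 and group 1 none of the 10 passed, where 0.899% of all genes were called. Prelp alone had an unadjusted p under 0.05, at 0.0418 in the authors' deposited table, as did 435 genes in all. Its level was 20.4 FPKM in group 2 and 15.4 FPKM in group 1. The differences ran from -0.29 ± 0.24 for Kera to 0.55 ± 0.29 for Aspn, with a median of 0.14 beside 0.02 over all genes. Between group 4 and group 3 none passed, and none of the 9 genes that reached 1 FPKM in either group had an unadjusted p under 0.05, where 0.294% of all genes were called and 105 had such a p. Both 105 of 12918 genes tested here and 435 of 12799 in the pair before are again below a share of 0.05. The median of all 10 differences was 0.11, beside -0.04 over all genes. Kera, under 1 FPKM in both groups, had a log2 ratio of -2.74 ± 1.46 (q 0.493 in the authors' deposited table), so the difference between 0.0585 FPKM in group 4 and 0.391 FPKM in group 3 was within the error.

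Because FPKM is scaled by transcript length, levels can be set side by side between genes. The class I genes summed to 349 FPKM in group 4 and 314 FPKM in group 3, against 680.2 FPKM in group 2 and 564 FPKM in group 1, 1.88-fold lower over groups 3 and 4. Class II summed to 42.5 FPKM in group 4 and 46.0 FPKM in group 3, against 115 FPKM in group 2 and 109 FPKM in group 1, 2.54-fold lower. Dcn made up 72.5% of the summed FPKM of the 9 proteoglycans in group 4 and 71.5% in group 3, against 65.0% in group 2 and 65.3% in group 1. Kera made up 0.0147% in group 4 and 0.106% in group 3, against 0.624% in group 2 and 0.929% in group 1. Without Dcn, the sum of the other 8 was 2.46-fold lower in groups 3 and 4, and with it 1.98-fold lower. These sums are descriptions, with no test.

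The order of levels was much alike in the 4 groups. Dcn was first in all 4 groups and stood above the next gene by more than 2 standard errors in each. Bgn and Lum followed, within 2 standard errors of one another in every group, and then Mfap4 and Aspn, also within 2 standard errors of one another. Ogn and Prelp came next and Fmod after them, except that Omd stood above Fmod in group 4, with a log2 ratio of 0.39 ± 1.20 between them. Kera was ninth in groups 1 and 2, above Omd, and last in groups 3 and 4. In group 4 it stood below Fmod by 5.04 ± 1.11 on the log2 scale. Of the 9 neighbouring pairs, 4 differed by more than 2 standard errors in group 4 and 2 in group 3, against 4 in group 2 and 6 in group 1.

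Most of these genes lie in clusters. In mm9, Dcn (chr10:96942133-96980796), Lum (chr10:97028134-97035337) and Kera (chr10:97069838-97076322) lie in a row on the plus strand of chromosome 10, followed by Epyc, which encodes epiphycan and stayed under 1 FPKM in all groups. Along this row the differences were -0.83 for Dcn, -1.20 for Lum and -2.48 for Kera on the log2(FPKM + 1) scale, with the errors given above. On chromosome 1, Prelp (chr1:135806881-135817978) lies on the minus strand beside Optc, which encodes opticin and was also under 1 FPKM, and Fmod (chr1:135934091-135944854) lies on the plus strand. Bgn (chrX:70728973-70741275) and Mfap4 (chr11:61298945-61302206) stand alone among the 10.

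On chromosome 13, Ecm2, Aspn, Omd and Ogn lie in a row on the plus strand inside Cenpp, a centromere protein gene on the minus strand. The deposited tables give 1 locus, chr13:49559427-49748100, for these 5 genes. None of the exons of Aspn, Omd or Ogn overlaps a Cenpp exon in the annotation. Aspn, Omd and Ogn had standard errors of the log2 level in group 3 of 0.79, 2.18 and 0.85. Outside this locus the same errors ran from 0.41 for Bgn to 0.74 for Fmod, with 0.59 for Dcn, apart from 1.04 for Kera. Kera was at 0.391 FPKM in that group. In group 3, Aspn, Omd and Ogn thus each lay above those of the 10 outside the locus, save Kera. In group 1, Aspn lay below Dcn, at 0.18 against 0.21. Whether the shared locus bears on the errors was not tested. Cenpp itself was at 1.74 FPKM in group 4 and 1.83 FPKM in group 3, against 1.40 FPKM in group 2 and 1.66 FPKM in group 1. Ecm2, whose product carries leucine-rich repeats, was at 3.26 FPKM in group 4 and 3.18 FPKM in group 3, against 9.07 FPKM in group 2 and 7.14 FPKM in group 1, and did not pass (difference -1.10 ± 0.54, adjusted p 0.160). Mfap4 overlaps Mapk7 and Prelp overlaps Gm15851, each on the other strand. The library protocol in the labels describes no step that marks the strand, so reads from the 2 strands of such overlaps cannot be told apart.

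**Figure D4:**
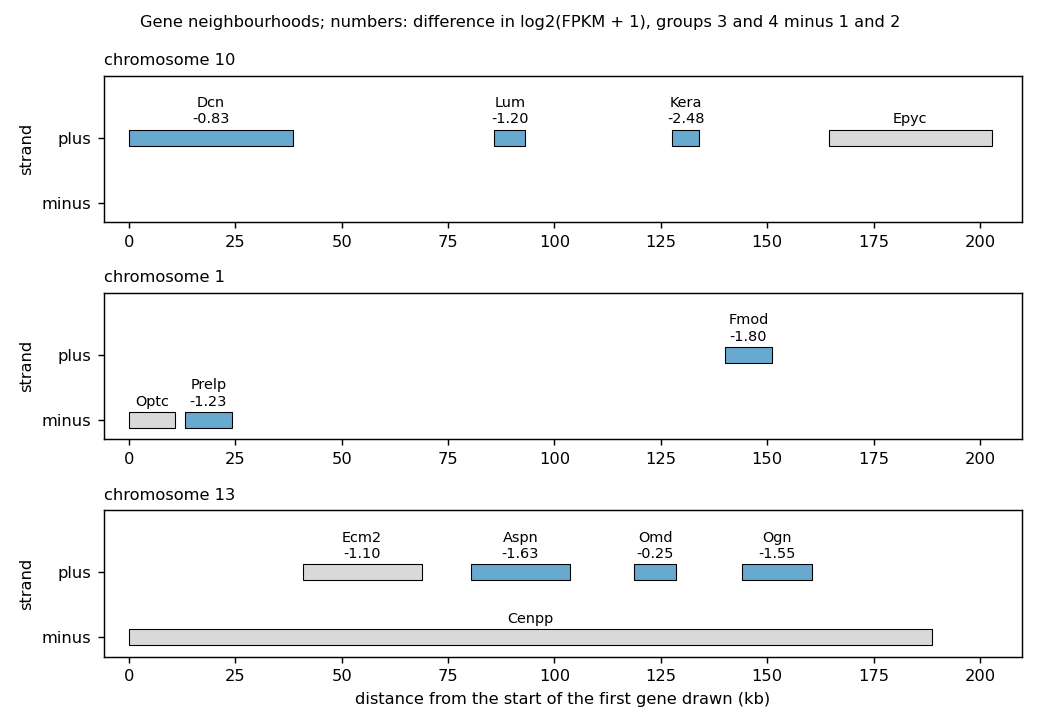
The 3 gene neighbourhoods drawn to scale in kilobases from the start of the first gene, by strand; blue boxes are the genes described, grey boxes their neighbours, and the numbers are differences in log2(FPKM + 1), groups 3 and 4 minus groups 1 and 2. On chromosome 10 the numbers run from -0.83 for Dcn through -1.20 for Lum to -2.48 for Kera; on chromosome 13 Omd, at -0.25, lies between Aspn at -1.63 and Ogn at -1.55.

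The promoters of 4 genes that fell are shown because they differ in size of fall, in genomic setting and in base composition. A promoter entry was matched for 7 of the 10, and Dcn, Lum and Mfap4 had none. The 250 bases before the annotated start are given 5′ to 3′ on the gene's strand, from RefSeq on GRCm38.p6, a later build than the mm9 of the levels. Capitals mark matches, read on either strand, to the CCAAT box and to the GC box, whose letters are GGGCGG. The regions are chr10:97606955-97607204 on the plus strand for Kera, chr1:134037004-134037253 on the plus strand for Fmod, chr1:133921402-133921651 on the minus strand for Prelp and chrX:73483351-73483600 on the plus strand for Bgn.
Kera: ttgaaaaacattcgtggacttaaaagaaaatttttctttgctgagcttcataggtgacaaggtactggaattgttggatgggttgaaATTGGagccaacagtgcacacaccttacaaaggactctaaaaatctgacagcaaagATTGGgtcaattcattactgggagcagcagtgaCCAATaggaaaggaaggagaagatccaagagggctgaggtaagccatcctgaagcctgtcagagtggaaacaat
Fmod: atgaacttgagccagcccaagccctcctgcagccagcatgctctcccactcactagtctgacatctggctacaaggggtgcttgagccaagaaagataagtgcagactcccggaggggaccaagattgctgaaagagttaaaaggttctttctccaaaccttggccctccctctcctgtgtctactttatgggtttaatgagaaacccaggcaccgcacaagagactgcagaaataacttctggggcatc
Prelp: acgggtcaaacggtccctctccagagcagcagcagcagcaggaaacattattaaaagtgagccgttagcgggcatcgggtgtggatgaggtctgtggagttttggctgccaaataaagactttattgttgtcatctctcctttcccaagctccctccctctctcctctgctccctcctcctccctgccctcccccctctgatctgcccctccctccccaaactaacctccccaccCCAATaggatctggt
Bgn: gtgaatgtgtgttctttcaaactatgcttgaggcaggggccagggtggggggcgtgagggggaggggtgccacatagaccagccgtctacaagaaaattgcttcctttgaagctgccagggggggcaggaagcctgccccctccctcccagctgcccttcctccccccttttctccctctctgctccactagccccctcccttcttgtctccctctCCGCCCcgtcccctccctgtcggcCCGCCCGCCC
CCAAT was found in Kera, Prelp and Aspn, 3 of the 7, and in 33.8% of 32851 promoters of the same length. Kera held it at 3 places. GGGCGG was found in Bgn alone, at 3 places of which 2 overlap, and in 32.7% of all promoters. TATAAA was found in Aspn and Ogn and in 12.4% of all promoters, and TGANTCA, the letters of an AP-1 site, in none of the 7 and in 6.75% of all. Kera and Prelp both held the run CCAATAGGA, 74 bases before the start of Kera and 15 bases before that of Prelp. This run was picked after the sequences were seen, and 0.475% of all promoters hold it. G and C made up 42.4% of the Kera promoter, 51.2% of Fmod, 55.6% of Prelp and 64.4% of Bgn, beside a median of 52.4% over all. These matches describe letters only.

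Other members of the family and of the matrix around it were read from lists of genes in the same contrast, groups 3 and 4 against groups 1 and 2. Each list count is to be read beside all genes tested there, of which 8.66% were lower and 6.47% higher. Of 9 other small leucine-rich repeat proteins 5 were tested, and 1 was higher and 1 lower, with a median of -0.74. Tsku, which encodes tsukushi, a secreted inhibitor of BMP and Wnt signals, rose to 17.8 FPKM in group 4 and 13.7 FPKM in group 3, against 7.30 FPKM in group 2 and 6.94 FPKM in group 1. Its difference was 1.03 ± 0.28, with an adjusted p of 0.00365, the opposite sign to all 10 genes above. Podn, which encodes podocan, fell by 0.74 ± 0.26 (adjusted p 0.0331). Ecm2 and Chad, which encodes chondroadherin, had differences of -1.10 ± 0.54 and -1.04 ± 0.41 and did not pass.

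Among 17 microfibril and elastic fibre genes tested 2 were lower and none higher, with a median of -0.42. That count was near the 8.66% of all genes called lower. Ltbp4, a TGF-beta binding protein of microfibrils, fell by 0.99 ± 0.29 (adjusted p 0.00958) and Mfap5, a fibrillin-bound glycoprotein, by 0.96 ± 0.29 (adjusted p 0.00994). Of 18 genes for fibrillar collagens and their processing 7 were lower and none higher, with a median of -0.50. Serpinh1, the collagen chaperone HSP47, fell by 1.19 ± 0.29 (adjusted p 0.00127), and Pcolce, an enhancer of procollagen cleavage, fell by 1.18 ± 0.28 (adjusted p 0.000606). Col3a1 was also called lower, and Col1a1, the main fibrillar collagen chain, was not, at 6.52 FPKM in group 4 and 12.8 FPKM in group 3, against 14.7 FPKM in group 2 and 11.3 FPKM in group 1 (difference -0.45 ± 0.28, adjusted p 0.297). Among the pairs, Col1a1 was called lower in group 4 against group 2 alone (difference -1.07 ± 0.30, q 0.0205 in the authors' deposited table).

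Genes for glycosaminoglycan chain synthesis, which would build the chains on these cores, had a median of -0.03, close to the -0.07 of all genes. Of 24 tested 2 were higher and 1 lower, near the 15.1% of all genes called either way. Chst5, a sulfotransferase that acts on keratan sulfate, fell by 1.17 ± 0.39 (adjusted p 0.0254), and Ugdh, which makes UDP-glucuronate, rose by 0.78 ± 0.26 (adjusted p 0.0214). Of 18 receptors and growth factors bound by the proteoglycans 3 were lower and none higher, with a median of -0.14. Tgfb3 fell by 1.13 ± 0.25 (adjusted p 0.000311) and Ctgf, a matricellular growth factor, by 1.02 ± 0.27 (adjusted p 0.00294). Ctgf was also higher in group 2, at 81.0 FPKM, than in group 1, at 39.0 FPKM (difference 1.04 ± 0.20, q 6.15e-05 in the authors' deposited table).

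Of 8 matrix proteases tested that can cut the proteoglycans 3 were higher and none lower, with a median of 0.20. Mmp3, stromelysin-1, was at 6.64 FPKM in group 4 and 20.3 FPKM in group 3, against 1.15 FPKM in group 2 and 0.805 FPKM in group 1. It rose by 2.70 ± 0.35 (adjusted p 3.02e-12), and Mmp9, a gelatinase, rose by 1.59 ± 0.29 (adjusted p 3.15e-06). The third was Mmp14, a membrane-bound protease. Mmp2, another gelatinase, differed by 0.02 ± 0.26 and did not pass.

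**Figure D5:**
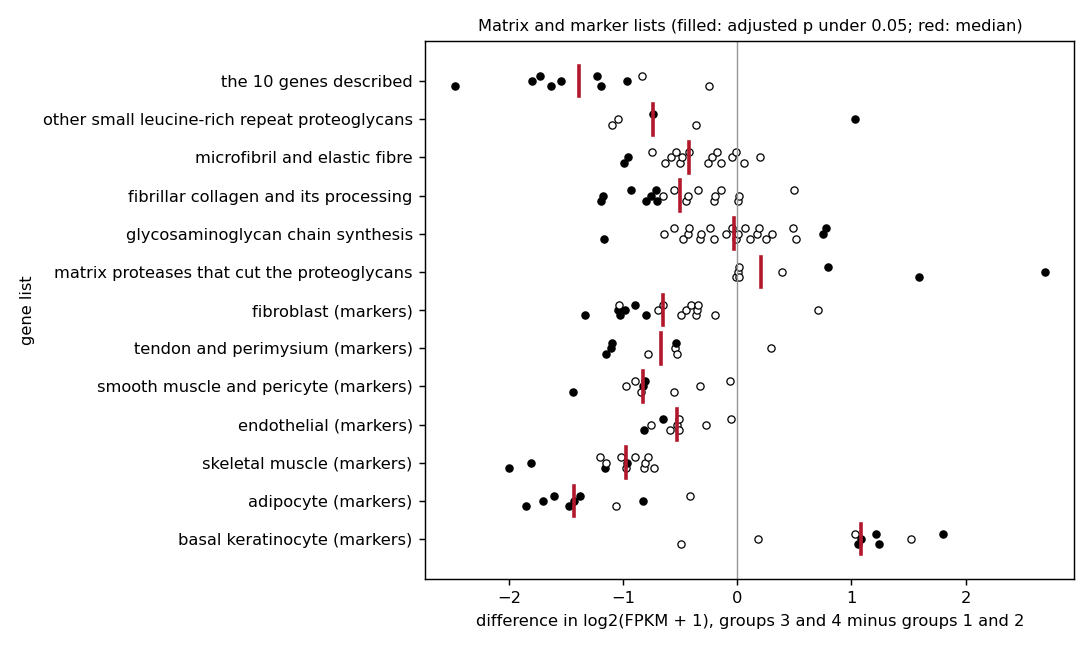
Difference in log2(FPKM + 1) of single genes, groups 3 and 4 minus groups 1 and 2, for the 10 genes described and for lists of matrix genes and cell type markers; filled points have an adjusted p under 0.05 and red bars are list medians. The 10 genes have a median of -1.39 and the adipocyte markers one of -1.43, while the median of the basal keratinocyte markers is 1.08.

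Tongue holds fibroblasts, muscle and epithelium, and markers of several of these moved in the same contrast. As above, 8.66% of all genes tested there were lower and 6.47% higher. In bulk tissue, fewer cells of a type and less RNA per cell cannot be told apart. Fibroblast markers, a list that shares no gene with the 10, were lower for 6 and higher for none of 17 tested, with a median of -0.65. Their summed level was 777 FPKM in group 4 and 719 FPKM in group 3, against 1457 FPKM in group 2 and 1261 FPKM in group 1. Dpt, which encodes dermatopontin, a decorin-binding matrix protein, fell by 1.33 ± 0.28 (adjusted p 0.000123), and Cd34 fell by 1.04 ± 0.30 (adjusted p 0.00805). Pdgfra, a receptor that marks fibroblasts, was at 4.47 FPKM in group 4 and 3.65 FPKM in group 3, against 6.56 FPKM in group 2 and 5.71 FPKM in group 1, and did not pass (adjusted p 0.150). S100a4 had a difference of 0.71 ± 0.28 and did not pass (adjusted p 0.0656).

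Markers of tendon and perimysium, tissues rich in fibromodulin and its kin, were lower for 4 of 8 tested, with a median of -0.66. Their summed level was 52.7 FPKM in group 4 and 36.9 FPKM in group 3, against 115 FPKM in group 2 and 76.5 FPKM in group 1. Cilp, a cartilage and tendon matrix protein, fell by 1.15 ± 0.26 (adjusted p 0.000402), and Comp, a collagen-binding thrombospondin, fell by 1.11 ± 0.23 (adjusted p 5.16e-05). Of 9 chondrocyte and bone markers, 7 were under 1 FPKM in every group, Col2a1 and Acan among them.

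Skeletal muscle markers were lower for 4 of 13 tested, with a median of -0.97, and their summed level was 20177 FPKM in group 4 and 17208 FPKM in group 3, against 35843 FPKM in group 2 and 39000 FPKM in group 1. Mybpc2 and Pvalb, both of fast muscle fibres, had the largest falls, at differences of -2.00 ± 0.33 and -1.81 ± 0.39. Adipocyte markers were lower for 7 of 9 tested, with a median of -1.43 and sums of 419 FPKM in group 4 and 359 FPKM in group 3, against 811 FPKM in group 2 and 853 FPKM in group 1. The largest falls were of Car3, at a difference of -1.85 ± 0.39, and Cfd, at -1.71 ± 0.39. Smooth muscle and pericyte markers were lower for 3 of 9, with Cnn1 at -1.44 ± 0.36 and Rgs5 at -0.83 ± 0.26, and endothelial markers for 2 of 9, with Cdh5 at -0.81 ± 0.25 and Kdr at -0.65 ± 0.23. Basal keratinocyte markers were higher for 5 and lower for none of 9 tested, with a median of 1.08. Their summed level was 1555 FPKM in group 4 and 1690 FPKM in group 3, against 804 FPKM in group 2 and 688 FPKM in group 1. Cdh3 rose by 1.80 ± 0.32 and Lamb3 by 1.24 ± 0.28. None of these lists had a marker at 0 in every group, while Acta1 and Krt14 exceeded the authors' read limit and are in no sum. The part of these shifts in the lower proteoglycan levels was not tested.

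By the distance between profiles over the 4 groups, on the log2(FPKM + 1) scale and centred on each gene's mean, the nearest of 8432 genes to Bgn was Mfap5, at 0.05. Mfap5 was at 16.2 FPKM in group 4 and 14.8 FPKM in group 3, against 35.3 FPKM in group 2 and 27.2 FPKM in group 1. The nearest to Prelp was Igfbp6, an IGF-binding protein, at 0.08, and the nearest to Aspn was Fibin, at 0.09. Cfd, the adipocyte gene for adipsin, was the nearest to both Mfap4, at 0.16, and Fmod, at 0.19. Lum was nearest to Gm20594, at 0.06, and then to the muscle genes Cacnb1 and Asb2. Kera lay farther from any other gene, with Actc1, the cardiac actin, nearest at 0.23 and H19 next at 0.58. Actc1 was at 51.9 FPKM in group 4 and 84.9 FPKM in group 3, against 316 FPKM in group 2 and 413 FPKM in group 1. On this scale the added 1 flattens the fall of Kera, which was 38.0-fold as a ratio of FPKM. Its nearness to Actc1 is therefore not a likeness of FPKM ratios. The same holds to a lesser degree for Fmod, at 1.92 FPKM in group 4 and 1.83 FPKM in group 3. Distances over 4 group values are descriptions.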

How the data were processed

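The deposited tables hold, for each of 6 pairs of numbered groups, the authors' FPKM per gene and group, a log2 ratio, a test score (the authors' statistic), a p-value and a q-value, per the file headers. Per the series design text, HiSeq2000 reads were compared with mm9 and levels were made with Cufflinks. GSNAP 2011.11.17 and edgeR are named without a role, per the submitters' processing notes. Replicates had been merged into group values by the authors, so no SD is given. P-values rest on the authors' errors of the group values, each from 3 samples. Without values per sample, how far these errors reflect the spread between samples cannot be told. The labels number these samples without saying that each is 1 animal.

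Genes passed a pair at a deposited q under 0.05 with 1 FPKM or more in either group; that q matched a Benjamini-Hochberg adjustment over 92458 tests. Squared errors (log2 ratio over statistic) of the 6 pairs were resolved into 4 group variances, moved to log2(FPKM + 1) by the delta method and used to test 3 contrasts per gene as a normal deviate, 2-sided, in genes with 1 FPKM or more in any group, with Benjamini-Hochberg adjustment over 13072 genes. As a check of its arithmetic, the calculation was run on simulated log2 levels drawn as normal deviates with these variances. Such draws cannot test the normal assumption itself. A gene whose variances could not be resolved was left out of the contrasts. Tools were Python 3.11.15, numpy 2.4.6, pandas 2.3.3, scipy 1.17.1 and matplotlib 3.10.9. Of 19 lists with 238 genes, 236 were found by symbol. The members and lists were chosen with earlier results of these data known. Named were all members, the 2 largest changes past the test per list, genes beside members in the genome and the nearest profiles. Chad, Camp, Elane, Mpo, Acta1, Krt14, Col3a1, Col1a1, Pdgfra, S100a4, Mmp2, Mmp13, Mmp14, Cacnb1, Asb2, Col2a1 and Acan were named in addition, after their values were seen. Lists of suprabasal keratinocyte, Schwann, macrophage, neutrophil and salivary markers were also counted.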

Additional observations from a re-analysis of the deposited data

How the results depend on the processing

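Of the values of single genes and medians recomputed, 659 kept their direction and their side of the threshold, 12 no longer passed, 2 newly passed and 2 changed sign. With a q under 0.01 the count of members past the test was 1 in group 3 against group 1 (without Fmod and Mfap4), 1 in group 3 against group 2 (without Prelp and Kera), 4 in group 4 against group 1 (without Prelp) and 6 in group 4 against group 2 (without Bgn). Centring subtracted from the ratios their median over genes with at least 5 FPKM in both groups. That median was -0.16 in group 4 against group 1 and -0.14 in group 4 against group 2, so centring raised the differences in these pairs. Centred, the difference of Omd, which passed in no pair, turned to 0.11 and 0.044 in these pairs, and Bgn in group 4 against group 2 (adjusted p 0.101), Prelp in group 4 against group 1 (adjusted p 0.0743) and Fmod in group 3 against group 1 (adjusted p 0.0685) no longer passed. Adjusted within a pair, Fmod in group 3 against group 1 (0.0552) and Prelp in group 3 against group 2 (0.0575) no longer passed, while Aspn (0.0268) and Ogn (0.0316) passed in group 4 against group 1. At an adjusted p under 0.01 the contrast of groups 3 and 4 with groups 1 and 2 lost Ogn. A fold of 2 in the pairs, no filter or one of 5 FPKM in pairs and contrasts, and no pseudocount, centring or 1 variance per gene in the contrasts changed no call of these genes. In the pairs a pseudocount cannot change a call, which rests on the deposited q, and there pseudocounts of 0 and 0.1 bear on the size of a difference alone. The cause of each change was not tested. No paired analysis was possible because only group values were at hand, and for that reason no replicate could be left out.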

Other observations

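Marker lists that the text above does not describe gave the following counts in groups 3 and 4 against groups 1 and 2. Of all genes tested there, 8.66% were lower and 6.47% higher. Suprabasal keratinocyte markers were higher for 2 of 8 tested, with a median of 0.98: Krt1, a keratin of cornifying epithelium, was at 62.2 FPKM in group 4 and 66.7 FPKM in group 3, against 1.99 FPKM in group 2 and 2.05 FPKM in group 1, and Dsc2, a desmosomal cadherin, rose by 1.53 ± 0.35. Neutrophil markers were higher for 2 of 3 tested, Retnlg and Csf3r, but the list was high mainly in group 4, with a summed level of 81.6 FPKM in group 4 and 5.80 FPKM in group 3, against 1.77 FPKM in group 2 and 1.41 FPKM in group 1. Retnlg was at 18.6 FPKM in group 4 and 1.77 FPKM in group 3, against 0.639 FPKM in group 2 and 0.191 FPKM in group 1, and also passed in group 4 against group 3 (q 0.0247 in the authors' deposited table). Camp, Elane and Mpo, which could not be tested in the contrast, were at 47.6, 6.84 and 4.15 FPKM in group 4, and at 0.266 FPKM or less in each of groups 3, 2 and 1. Salivary gland markers were higher for 3 and lower for 4 of 9, Schwann markers lower for 1 of 7 (Sox10), and none of 9 macrophage markers passed the normal deviate test or had an unadjusted p under 0.05.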
